A study of Mus musculus with 8 samples.

Results

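The regions described here are 518 places in the mouse genome, chosen by peak calls, away from coding gene ends where 1 library of the chromatin remodeler Chd8 and both libraries of its relative Chd7 had peaks. Chromatin immunoprecipitation and sequencing (ChIP-seq) had been run on O4-positive cells of the cortex and corpus callosum, taken by magnetic sorting of wild-type mice on postnatal day 7 and labelled oligodendrocyte precursor cells (OPCs). The libraries used were 1 Chd8 ChIP (replicate 3, anti-Chd8 from Bethyl), 2 Chd7 ChIPs (replicates 1 and 2, anti-Chd7 from Cell Signaling), 2 mocks with rabbit IgG (1 for Chd7 replicate 1, and 1 shared by Chd7 replicate 2 and Chd8) and 3 inputs without antibody. The O4 antigen marks late precursors and immature oligodendrocytes, so the sort can hold more than 1 stage, and peak lists carry no transcript levels against which its purity could be checked.

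A member is a Chd8 peak that touched no mock peak, overlapped a peak of each Chd7 library by at least 1 bp, and lay more than 1 kb from every boundary of a RefSeq protein-coding gene of the mouse build mm10. The Chd8 list held 18415 peaks, of which 18350 touched no mock peak, and 9712 of these were distal. The 518 members were 5.33% of the distal peaks, while 2402 distal peaks were found in 1 Chd7 library and 6792 in neither. At gene ends, 927 Chd8 peaks touched both Chd7 libraries. Members were chosen by their peak calls in Chd8 and Chd7, so their folds and q-values in these libraries are descriptions with no test. The peak lists held 18415 peaks for Chd8, 5282 and 6292 for Chd7 replicates 1 and 2, 89 and 98 for the mocks, and 109486, 178478 and 91628 for inputs 1 to 3. There was 1 Chd8 library, so no Chd8 value has a replicate error, no test over samples could be made, and each interval after a share is a 95% Clopper-Pearson interval that takes peaks or genes as the units and holds counting error alone. Depth is unknown because peak lists hold no read counts. The inputs had many more peaks than the ChIP libraries, and at least 1 input had a peak at 274 members (52.9%), beside 26.6% of all distal Chd8 peaks, so counts are also given below without those members.

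Chd7 and Chd8 belong to the CHD family, whose members use ATP to slide or evict nucleosomes and carry chromodomains, which bind histone tails. Mutations of CHD7 cause CHARGE syndrome and mutations of CHD8 are among the recurrent findings in autism. Distal sites of chromatin regulators are often enhancers, which can act on genes other than the nearest, so a nearest gene below is a position and not a target. In the oligodendrocyte lineage Olig2 and Sox10 specify precursors, Pdgfra relays the growth signal that keeps them dividing, and Tcf7l2, Nkx2-2 and Nkx6-2 act as cells mature.

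Sequence could be read where a member covered a transcription start listed by RefSeq, in windows of 300 bases running from 250 before to 50 after the start (GRCm38.p6, the assembly also called mm10). The first 6 windows below lay wholly inside the members of highest Chd8 fold that hold such a window, and the last, chosen after its values were seen, inside the member nearest to Olig2. They show starts at sites that are distal only with respect to the outer boundaries of coding genes, and how unequal these sites are in CpG content. Capitals mark CpG dinucleotides, and each sequence runs 5′ to 3′ on the strand of the transcript. The windows are Gm10433 at chr12:100187718-100188017 (plus strand), Malat1 at chr19:5802623-5802922 (minus), Srrm2 at chr17:23802937-23803236 (plus), 1700096K18Rik at chr5:25529768-25530067 (plus), Zbtb11 at chr16:55973554-55973853 (plus), Cipc at chr12:86947093-86947392 (plus) and Gm52261 at chr16:91233725-91234024 (minus).
Gm10433: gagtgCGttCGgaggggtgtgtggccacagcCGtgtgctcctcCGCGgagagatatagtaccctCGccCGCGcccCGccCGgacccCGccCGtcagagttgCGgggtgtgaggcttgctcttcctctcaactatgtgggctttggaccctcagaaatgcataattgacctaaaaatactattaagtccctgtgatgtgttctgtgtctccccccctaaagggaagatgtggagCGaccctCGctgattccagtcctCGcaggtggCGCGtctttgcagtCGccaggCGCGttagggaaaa
Malat1: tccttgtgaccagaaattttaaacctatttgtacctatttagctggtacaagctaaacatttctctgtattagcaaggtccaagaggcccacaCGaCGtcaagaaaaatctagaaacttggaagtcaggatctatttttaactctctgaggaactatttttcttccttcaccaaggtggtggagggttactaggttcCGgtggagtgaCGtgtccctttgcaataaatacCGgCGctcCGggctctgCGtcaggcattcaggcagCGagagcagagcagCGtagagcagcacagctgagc
Srrm2: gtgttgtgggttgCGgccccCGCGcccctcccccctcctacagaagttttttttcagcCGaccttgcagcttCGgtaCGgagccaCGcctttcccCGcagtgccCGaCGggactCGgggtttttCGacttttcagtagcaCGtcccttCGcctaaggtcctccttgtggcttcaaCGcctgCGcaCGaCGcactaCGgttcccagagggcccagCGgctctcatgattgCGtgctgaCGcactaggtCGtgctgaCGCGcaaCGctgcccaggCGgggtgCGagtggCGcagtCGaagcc
1700096K18Rik: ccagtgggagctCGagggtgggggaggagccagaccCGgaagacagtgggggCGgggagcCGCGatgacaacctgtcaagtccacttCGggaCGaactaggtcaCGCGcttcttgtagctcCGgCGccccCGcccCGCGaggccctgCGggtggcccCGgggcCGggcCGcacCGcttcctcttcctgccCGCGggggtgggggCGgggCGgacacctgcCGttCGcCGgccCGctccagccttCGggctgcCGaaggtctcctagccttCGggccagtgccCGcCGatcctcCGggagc
Zbtb11: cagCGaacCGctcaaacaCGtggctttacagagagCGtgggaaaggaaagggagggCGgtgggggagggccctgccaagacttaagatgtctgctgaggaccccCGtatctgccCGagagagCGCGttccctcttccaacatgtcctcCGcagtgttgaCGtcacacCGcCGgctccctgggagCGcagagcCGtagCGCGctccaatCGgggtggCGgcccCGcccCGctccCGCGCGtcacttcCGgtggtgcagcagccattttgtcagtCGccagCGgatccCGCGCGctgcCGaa
Cipc: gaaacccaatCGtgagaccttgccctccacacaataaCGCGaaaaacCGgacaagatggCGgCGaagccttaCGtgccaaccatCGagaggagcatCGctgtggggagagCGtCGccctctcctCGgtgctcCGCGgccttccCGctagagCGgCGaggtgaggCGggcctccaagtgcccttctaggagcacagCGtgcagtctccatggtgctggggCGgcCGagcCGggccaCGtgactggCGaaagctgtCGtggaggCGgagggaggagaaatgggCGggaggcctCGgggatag
Gm52261: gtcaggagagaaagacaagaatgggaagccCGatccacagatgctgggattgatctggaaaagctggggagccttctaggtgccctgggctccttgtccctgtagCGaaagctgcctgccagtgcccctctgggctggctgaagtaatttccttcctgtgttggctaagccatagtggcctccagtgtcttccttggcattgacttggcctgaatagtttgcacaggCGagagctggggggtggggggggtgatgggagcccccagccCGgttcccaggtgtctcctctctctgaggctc

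The window at an internal start of Srrm2, a splicing factor gene, held 30 CpG dinucleotides, and that of the lncRNA Gm52261 held 4. The ratio of observed to expected CpG was 0.983 at Srrm2, 0.949 at Zbtb11, 0.896 at Cipc, 0.814 at Gm10433, 0.804 at 1700096K18Rik, 0.604 at Malat1 and 0.157 at Gm52261. Malat1 is an abundant nuclear lncRNA, Zbtb11 encodes a zinc finger protein, and Cipc a repressor that acts on the circadian factor Clock. The member at Malat1 had a Chd8 fold of 9.16 and Chd7 folds of 4.31 and 3.57 in replicates 1 and 2, and that at Gm52261 had 6.88, 5.71 and 3.56. Fold is the authors' enrichment of a peak over the local background of their caller, and it is read within a library and not compared between libraries.

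The Chd8 fold of members ran from 3.81 to 17.6 with a median of 5.30, their Chd7 fold from 4.15 to 12.9 (median 4.85) in replicate 1 and from 3.05 to 15.3 (median 3.44) in replicate 2. Many of the Chd7 calls were near the lowest listed, a −log10 q of 1.48 in replicate 1 and 1.30 in replicate 2. In replicate 2, 322 members (62.2%) had a Chd7 −log10 q under 2, in replicate 1 136 members (26.3%), and in both replicates 93.

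The rule asks for a peak of each Chd7 library on the Chd8 peak, so how these peaks lie together is given only as a description. Chd7 peaks of both replicates overlapped each other at 482 members (93.1%) and stood in separate stretches of the Chd8 peak at 36. The midpoint of the strongest Chd7 peak lay a median of 92.5 bp from the Chd8 midpoint in replicate 1 and 119 bp in replicate 2. Chd8 peaks were the wider ones: the median member was 676 bp wide, with Chd7 peaks of 296 and 362 bp that covered 44.2% and 50.8% of it. Median width was 463 bp for distal Chd8 peaks in 1 Chd7 library and 272 bp for those in neither, and a wider peak has more room to touch any other.

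**Figure D1:**
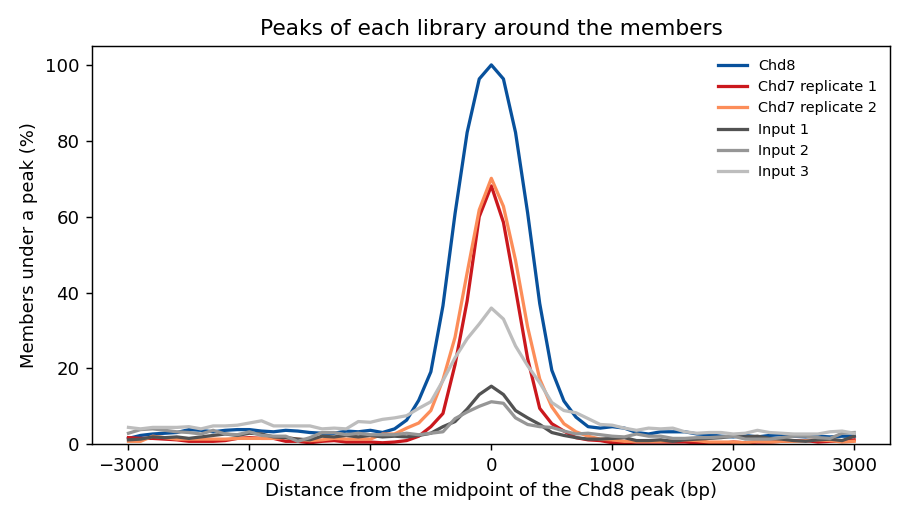
Share of the 518 members (%) lying under a peak of each library, by distance from the midpoint of the Chd8 peak (bp), with 1 line per library. The Chd8 and Chd7 lines are high near 0 by the choice of members. At the midpoint Chd7 replicates 1 and 2 cover 68.1% and 70.1% of members and the inputs stand at 15.3%, 11.2% and 35.9%.

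The member with the highest Chd8 fold, 17.6, lay on chromosome 8 from 19784513 to 19785282, 30910 bp from 4930467E23Rik, with Chd7 folds of 5.85 and 4.76. All 3 inputs also had peaks there, with folds of 5.52, 5.08 and 6.93. The second, at the start of the assembled chromosome 9 (3002540 to 3002808), had a Chd8 fold of 13.6 and the highest Chd7 folds of all, 12.9 and 15.3, beside input folds of 26.8, 42.4 and 42.7. It was 1 of 3 members on that stretch, nearest to Alkbh8 but 332423 bp away, and these were the 3 members with an input fold of at least 10. Over all members 13 had an input fold of at least 5, and 6 members started below 3.1 Mb of their chromosome. The part of the inputs in these folds was not tested.

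Kmt2d, which encodes a histone H3 lysine 4 methyltransferase, held the member with the next highest Chd8 fold, 10.9, on chromosome 15 from 98871770 to 98872642, with Chd7 folds of 4.23 and 3.18 and a peak in input 3 only. The member in Hexim2, an inhibitor of the elongation factor P-TEFb, followed with 10.1, and inputs 2 and 3 had peaks there. No input touched the members beside Secisbp2l (9.81), beside the actin-binding gene Svil (9.71), inside the recombination gene Rad51b (9.69), beside the deubiquitinase gene Usp24 (9.27) and inside Arhgap31, a GTPase-activating protein gene (9.18). Chd7 folds at these 5 were 5.40 and 3.79, 5.18 and 3.85, 5.66 and 3.81, 6.15 and 4.14, and 6.86 and 4.23 in replicates 1 and 2. The member at the start of Gm10433 had 9.29 and a peak in input 1. Among these 10 members 5 had no peak of any input.

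By mean Chd7 fold, the members after those of chromosome 9 lay inside Mast4 (6.46 and 7.22 in replicates 1 and 2), inside Wipf1, an actin regulator (8.28 and 4.57), inside the phospholipase C gene Plcb1 (7.63 and 4.48), beside the eye field homeobox gene Rax (8.33 and 3.63), 263107 bp from Stmn2, a neuronal microtubule regulator (7.49 and 4.14), inside Ampd3, an AMP deaminase gene (7.13 and 4.34), and inside Alpk2 (7.17 and 4.03). Chd8 folds there ran from 3.81 at Alpk2 to 7.07 at Ampd3. Of these 7, only the member near Stmn2 touched input peaks, with folds of 4.57, 4.55 and 5.69.

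Genes of OPC identity were near members in several places. Of 40 listed genes, 8 (interval 9.05% to 35.6%) held a member or were the nearest coding gene to one, beside 2.33% of 21887 protein-coding genes. The same 40 genes also had distal Chd8 peaks of any kind at 36 (90.0%), beside 24.3% of all genes, and members were found at 22.2% of the OPC genes that had a distal Chd8 peak and at 9.58% of all such genes. That share was 27.3% for differentiation, 26.5% for autism risk, 26.1% for chromatin, 25% for Notch and 23.1% for transcription factor genes. It was 33.3% and 25% for the microglia list and the endothelial and mural list, where 3 and 4 genes had a distal Chd8 peak. Lower shares were those of cell cycle and p53 (18.8%), Wnt and Hedgehog (16.0%), cholesterol (14.3%), growth factor (8.70%), neuron (7.14%) and astrocyte genes (0). By this share OPC genes thus stood amid the lists and not above them all. Olig2, the bHLH factor that specifies the lineage, was nearest to 2 members, 1 at 4191 bp and 1 at 33402 bp on chromosome 16. The first ran from 91232868 to 91234309 with a Chd8 fold of 6.88 and Chd7 folds of 5.71 and 3.56. The second ran from 91191258 to 91192148 with 6.88, 5.85 and 3.05. Its paralog and neighbour Olig1 was nearest to a member from 91305039 to 91306083, at 33100 bp, with 5.20, 5.27 and 3.57.

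Sox10, the SoxE factor that drives the lineage's programme, had a member 28862 bp away on chromosome 15 (79193352 to 79193768) with a Chd8 fold of 5.65 and Chd7 folds of 6.25 and 4.36. Both Chd7 folds were above the members' medians. Pdgfra, the receptor for platelet-derived growth factor A, had one 25674 bp away on chromosome 5 (75223880 to 75224229) with 6.02, 4.38 and 3.48. A member inside the listed boundaries of Nkx2-2, a homeobox gene, had 5.34, 4.32 and 3.25, and one inside Cspg4, the NG2 proteoglycan gene, had 5.07, 5.00 and 3.23. At Pdgfra and Nkx2-2 the Chd7 peaks of the replicates did not overlap each other. Their Chd7 −log10 q was under 2 in both replicates, at 1.81 and 1.90 for Pdgfra and 1.72 and 1.53 for Nkx2-2. It was under 2 in replicate 2 only for Cspg4 and for both members nearest to Olig2. Of these Olig2 members, the one at 33402 bp had 1.33 in replicate 2 and the one at 4191 bp had 1.94. The remaining listed genes were Xylt1, a xylosyltransferase gene of proteoglycan assembly (4.81, 5.87 and 4.75), and Opcml, a cell adhesion gene (4.30, 4.25 and 3.28). The members' median Chd7 folds were 4.85 and 3.44, and members at Olig1, at Xylt1 and 4191 bp from Olig2 were also above both. Those at Nkx2-2 and Opcml were below both, and those at Pdgfra, at Cspg4 and 33402 bp from Olig2 were below 1 of them. Sox8, Gpr17, Myrf and Mbp held no member and were nearest to none. Of the 7 members nearest to Olig1, Olig2, Sox10, Pdgfra, Cspg4 or Nkx2-2, those at Olig1 and Pdgfra touched no input peak and each of the other 5 touched peaks of 1 input.

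**Figure D2:**
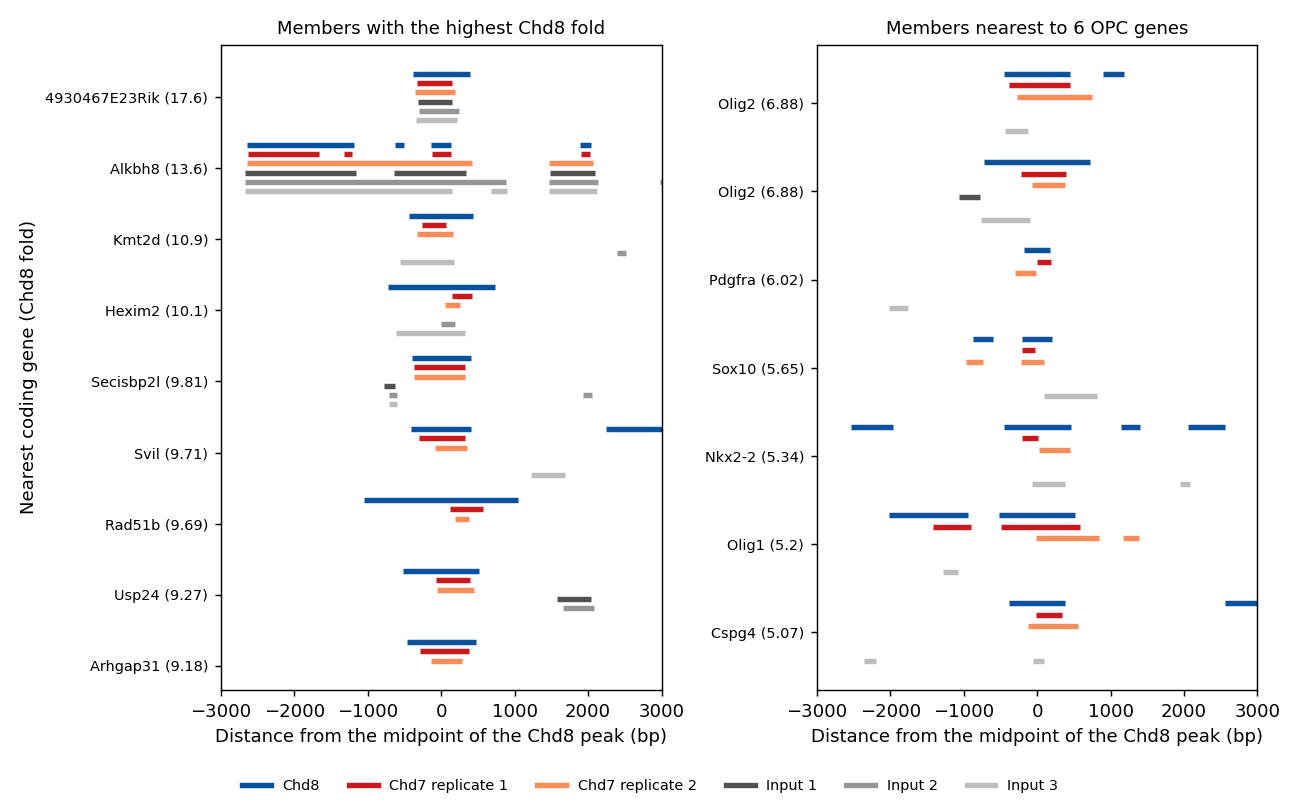
Peaks of each library within 3000 bp of the Chd8 midpoint (x axis, distance in bp) for 9 of the 10 members of highest Chd8 fold and the 7 members nearest to 6 OPC genes, in rows named by the nearest coding gene with the Chd8 fold in brackets. Each bar is 1 peak, the overlap of Chd7 bars with the central Chd8 bar is what chose the members, and input bars, which did not, are missing from the centre of many rows and broad at the row of Alkbh8.

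Genes of oligodendrocyte differentiation and myelin had members at 6 of 39 (15.4%, 5.86 to 30.5). Mbp, the myelin basic protein gene, was not among them. Tcf7l2, a Wnt effector of differentiating oligodendrocytes, was nearest to 2 members, with Chd8 folds of 5.97 and 5.06 at 19349 and 95415 bp. The other 5 were the potassium channel gene Kcnj10 (5.31), Sirt2, a deacetylase gene (4.98), the homeobox gene Nkx6-2 (4.96), Cldn11, the tight junction claudin of myelin (4.32), and Zeb2, a transcription factor gene (3.92). Their Chd7 folds ran from 4.42 to 5.70 in replicate 1 and from 3.11 to 4.37 in replicate 2.

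In a mixed list of transcription factors (NFI, bHLH, Zic, Fox, POU, zinc finger, TEA domain and others) 6 of 30 had a member (interval 7.71% to 38.6%): Nfia with a Chd8 fold of 7.37 and Chd7 folds of 5.88 and 5.28, Tcf4 with 6.55 at 326792 bp, the POU factor Pou3f1 with 5.71, the BTB zinc finger gene Zbtb20 with 2 members of up to 5.21, Tcf3 with 4.67 and the TEA domain factor Tead1 with 4.00. At Nfia all 3 inputs had peaks, with folds of 4.44, 4.02 and 4.20. Chromatin remodelers and modifiers had 6 of 44 (13.6%, 5.17 to 27.4), each with its member inside the gene: Kmt2d (10.9), Chd2, a relative of Chd7 and Chd8 (8.92), Arid1a, a BAF subunit gene (7.41), Hdac4 (4.92), Kdm6a (4.47) and Smarca2 (4.47). Chd7 and Chd8 themselves had none. Autism risk genes had 9 of 52 (17.3%, 8.23 to 30.3), led by Chd2, Myt1l (7.11), Tcf4 and Tcf7l2. Median gene length was 127.2 kb for autism risk, 62.4 kb for chromatin and 44.1 kb for transcription factor genes, against 17.2 kb for all genes. It was 90.0 kb for growth factor and 68.3 kb for Wnt and Hedgehog genes, and from 14.7 to 37.4 kb for the other lists. The part of length in the shares of the lists was not tested.

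Signalling lists had members at 2 to 4 genes each. Notch pathway genes had 3 of 23 (interval 2.78% to 33.6%), namely Maml2, a coactivator (Chd8 fold 6.32), and the receptors Notch1 (5.04) and Notch2 (4.76), all inside the gene. Wnt and Hedgehog genes had 4 of 36 (11.1%, 3.11 to 26.1): Tcf7l2, Ctnnb1, which encodes β-catenin (4.92 and 4.64 at 66487 and 63576 bp), Axin2, a feedback inhibitor (4.60), and the receptor gene Fzd9 (4.53). Cell cycle and p53 genes had 3 of 34, namely Mdm4 (6.48), Mycn (5.31) and Ccnd1 (3.81), and growth factor receptors and regulators had 2 of 32, Lingo1 (5.34) and Spred1 (4.28). Cholesterol synthesis had 1 of 26, Insig2 (4.74).

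Markers of other cell types that a sort could hold were also counted. Microglia genes had 1 of 22 (Ptprc, 294948 bp from a member of Chd8 fold 4.46), endothelial and mural genes 1 of 28 (Cspg4, which pericytes share with OPCs), neuron genes 1 of 32 (Stmn2, above) and astrocyte genes 0 of 22, which allows a share of up to 15.4% by the exact interval. The shares were 4.55%, 3.57%, 3.12% and 0, and the interval of each list held the 2.33% of all genes. Distal Chd8 peaks of any kind were at 13.6%, 14.3%, 43.8% and 45.5% of these lists.

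**Figure D3:**
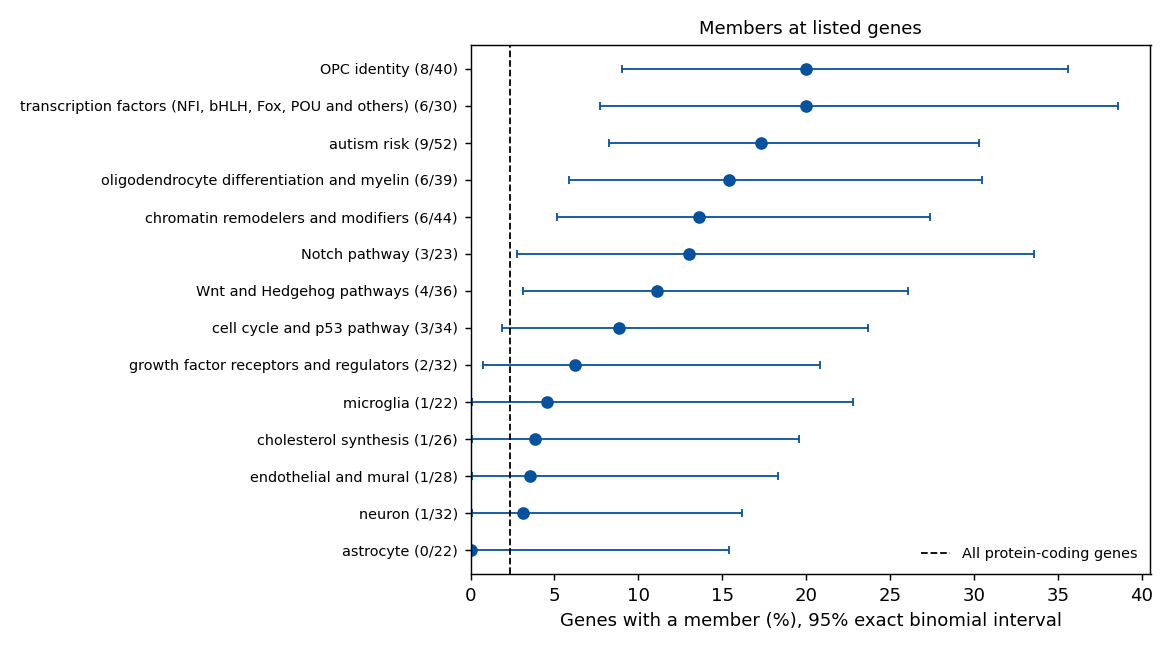
Share of each gene list (%) that holds a member or is the nearest coding gene to one, with 95% exact binomial intervals over genes and the number of genes in brackets. The dashed line is the share of all protein-coding genes, 2.33%, and the intervals of OPC identity, the transcription factors, autism risk, differentiation, chromatin, Notch, and Wnt and Hedgehog lie above it, while those of the other 7 reach it.

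Leaving out members that touched any input kept 250 genes in all (1.14%), and OPC identity then had 4 of 40, oligodendrocyte differentiation 4 of 39 (10.3%), autism risk 6 of 52 (11.5%) and chromatin remodelers 1 of 44 (2.27%). Wnt and Hedgehog genes then had 4 of 36, transcription factors 3 of 30, Notch 2 of 23, and cell cycle and p53 genes 0 of 34. Requiring a −log10 q of at least 2 in the 3 ChIP libraries left 3 of 40 OPC identity genes. These were Olig1, Sox10 and Xylt1, so Olig2, Pdgfra, Cspg4 and Nkx2-2 were lost. Transcription factors kept 3 of 30, Wnt and Hedgehog genes 2 of 36, autism risk 2 of 52 and chromatin genes 1 of 44. Differentiation (0 of 39), Notch (0 of 23) and growth factor genes (0 of 32) kept none, beside 0.708% of all genes. With Chd7 replicate 1 alone, that is without replicate 2, 24 of 40 OPC identity genes (60.0%) were counted beside 8.40% of all genes, and with replicate 2 alone 13 (32.5%) beside 4.83%.

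Members lay inside genes about as often as other distal Chd8 peaks: 326 of 518 (62.9%, 58.6 to 67.1), beside 61.0% of all distal Chd8 peaks. The share was 61.0% (59.0 to 63.0) for peaks in 1 Chd7 library and 60.8% (59.6 to 62.0) for those in neither. With members included, it was 66.2% for distal peaks in Chd7 replicate 2 and 59.3% for those in replicate 1. The median distance to a coding gene boundary was 17838 bp for members, 23676 bp for peaks in 1 Chd7 library and 18974 bp for those in neither. Beyond 100 kb lay 60 members (11.6%, 8.96 to 14.7), against 18.2% (16.7 to 19.8) and 16.2% (15.3 to 17.1). Inside genes with a single listed strand, 31.2% (25.6 to 37.3) of 256 members fell in the first 1 of 5 equal stretches of the gene and 11.3% (7.72 to 15.9) in the last. In that first stretch lay 27.9% (25.3 to 30.6) of such peaks in 1 Chd7 library and 31.7% (30.1 to 33.4) of those in neither. The nearest gene had a Chd8 peak at an end for 255 members (49.2%, 44.8 to 53.6), beside 51.0% of distal Chd8 peaks and 41.0% of all genes. It had a Chd8 peak shared with both Chd7 libraries at an end for 33 (6.37%, 4.43 to 8.83), beside 7.29% and 6.91% for the other distal peaks and 5.25% of all genes.

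**Figure D4:**
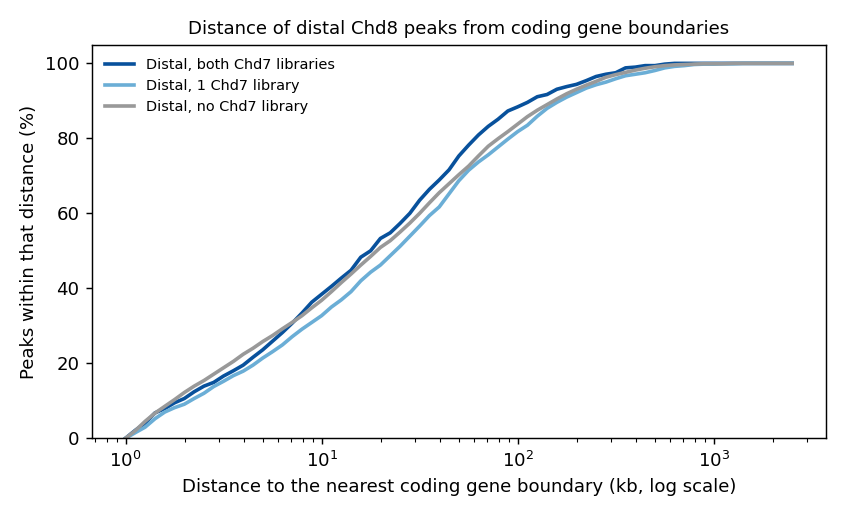
Cumulative share of distal Chd8 peaks (%) by distance to the nearest coding gene boundary (kb, log scale) for peaks in both, 1 or neither Chd7 library. The 3 curves run close together, with medians of 17838, 23676 and 18974 bp.

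At the 1 kb limit itself, the members just inside were 1003 bp from Angptl6 (Chd8 fold 4.65, Chd7 folds 4.82 and 3.07) and 1010 bp from Gdf1 (4.92, 4.65 and 3.23). The shared peaks just outside were 978 bp from Snx13 (4.26, 5.05 and 3.78) and 969 bp from Hes1 (4.93, 4.34 and 3.16).

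Some members lay at starts that the outer coding gene boundaries do not show. A start listed by RefSeq lay within 1 kb of 122 members (23.6%, 20 to 27.4), beside 17.2% of all distal Chd8 peaks. Starts of coding genes, internal to the outer boundary, accounted for 87 (16.8%, 13.7 to 20.3, beside 12%, which was 1168 of 9712) and starts of lncRNA genes for 51 (9.85%, 7.42 to 12.7, beside 6.52%). The shares in peaks with 1 Chd7 library were 12.3% and 6.16%, and with neither 11.6% and 6.39%. A non-coding gene end of any kind lay within 1 kb of 84 members (16.2%, 13.1 to 19.7, beside 12.1%), and an lncRNA end at 69 (13.3%, beside 9.81%). Non-coding ends were at 17.9% of distal peaks in Chd7 replicate 2 and 10.9% of those in replicate 1, members included. With peaks of the matching input or of any input removed, the members' share was 11.0% and 8.61%. The same share of all distal peaks without input peaks was not computed. Distances ran from peak edges, and median width was 676 bp for members and 315 bp for all distal Chd8 peaks. The part of width in these shares was not tested. No tRNA gene lay within 1 kb of a member, 0 of 518, which allows up to 0.710% by the exact interval, and 0.813% of distal Chd8 peaks had one. Inside genes 29.4% of members were near a listed start and between genes 13.5%.

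The start windows themselves were touched by 101 members, at 127 windows of 73 coding and 39 lncRNA genes. Besides the members printed above, those of highest Chd8 fold were at Taok2, a kinase gene (8.50), Smim10l1 (8.04), Eif4g3, a translation initiation factor gene (7.21), the biotin ligase gene Hlcs (7.17) and the membrane contact gene Esyt2 (7.17). Others stood at H3f3b, a histone H3.3 gene (5.74), Hnrnpl, a splicing factor gene (5.71), Cirbp, a cold-inducible RNA-binding protein gene (5.65), and the lncRNA Oip5os1 (5.61), all chosen after their values were seen. Inputs had peaks at all 4 of the last group.

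The 127 windows were rich in CpG and G + C. Their median G + C content was 63.7% and their median observed to expected CpG 0.743, against 49.0% and 0.253 in 13967 windows of starts more than 1 kb from every coding boundary. A CpG ratio of at least 0.6 was found in 98 (77.2%, 68.9 to 84.1), against 15.1% of those starts, 66.8% of windows touched by distal peaks in 1 Chd7 library and 57.8% for peaks in neither. At shared gene ends it was 91.5%. The median ratio was 0.749 in windows touched by peaks in 1 Chd7 library and 0.654 for peaks in neither, so the members' median was not the highest. Windows of 1 gene can overlap, so they are not independent.

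Short motifs were searched on both strands of the windows, and a match is only a match of letters. The GC box GGGCGG was in 70.1% (61.3 to 77.9) of the 127 windows, 35.6% of all 32817 distinct windows and 18.5% of distal starts. Windows touched by distal Chd8 peaks in 1 Chd7 library held it in 55.5% (50.4 to 60.5) and those of peaks in neither in 47.6% (43.8 to 51.3). At gene ends shared with both Chd7 libraries it was in 74.1% (71.4 to 76.7), so it was not particular to the members. For the other motifs the share of members' windows is followed by that of windows touched by distal Chd8 peaks in 1 Chd7 library, in neither, and of all distinct windows. The ETS core CCGGAA was in 28.3% (20.7 to 37.0), 23.8%, 25.1% and 14.9%. The YY1 core ATGGCG was in 13.4% (8.00 to 20.6), 13.8%, 14.3% and 8.92%, and the short NFI motif TTGGC in 56.7% (47.6 to 65.5), 57.0%, 51.3% and 46.7%. The SOX motif ACAAAG was in 14.2% (8.62 to 21.5), 17.9%, 17.3% and 18.7%, and the TEAD motif GGAATG in 11.0% (6.16 to 17.8), 14.3%, 16.9% and 14.7%. The AP-1 motif TGANTCA was in 6.30% (2.76 to 12), 6.65%, 5.04% and 7.81%, and the CCAAT box CCAAT in 35.4% (27.2 to 44.4), 39.9%, 37.2% and 37.4%. For these 7 motifs the members' interval held the shares of both other distal classes. The Olig-type E-box CANATG was in 22.0% (15.2 to 30.3), 27.1%, 31.0% and 39.4%, and the short RFX motif GTTGCC in 7.87% (3.84 to 14.0), 12.8%, 15.1% and 12.5%, where the interval held the share of peaks in 1 Chd7 library and lay below that of peaks in neither. On the opposite strand CCAAT reads ATTGG and can share letters with TTGGC, and letter content differs between the sets as given above. Members without a listed start have no sequence here, so these shares do not describe them.

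A miRNA gene lay within 1 kb of 4 members (0.772%, 0.211 to 1.97), near the 0.505% of all distal Chd8 peaks. Mir210, known for its induction by low oxygen, was 200 bp from a member on chromosome 7 (141221693 to 141222093) with a Chd8 fold of 4.15 and Chd7 folds of 5.73 and 3.32. Mir5620 lay inside a member of Chd8 fold 5.16, and Mir6352, which overlapped one of 3.81, and Mir1893 were the others. The mature arm of Mir210 that is usually the more abundant is shown with its seed, bases 2 to 8, in capitals.
mmu-miR-210-3p: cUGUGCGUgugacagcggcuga

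The inputs, which the choice of members did not use, were examined library by library, and the interval of the 52.9% of members that touched any of them was 48.5% to 57.3%. Input 1 touched 129 (24.9%, 21.2 to 28.9, beside 7.73%), input 2 touched 106 (20.5%, 17.1 to 24.2, beside 7.24%) and input 3 touched 245 (47.3%, 42.9 to 51.7, beside 23.3%). For distal peaks in 1 Chd7 library the shares were 11.7%, 10.3% and 27.8%, and for those in neither 5.01%, 5.15% and 19.9%. The labels pair input 3 with the Chd8 library. The track name in the Chd8 file carries the number 2 and that of Chd7 replicate 2 the number 3, so input 2 may be the match. Input 2 had the most peaks of the 3 inputs and touched the fewest members. In all 3 inputs, members were more often in input peaks than distal peaks in neither Chd7 library or in 1, with both Chd7 libraries pooled. The Chd7 libraries differed: with members included, input 3 touched 55.8% of 1139 distal peaks in Chd7 replicate 2 and 22.7% of 2299 in replicate 1. Any input touched 62.7% and 25.9% of these, so peaks in replicate 2 stood above the members. Members were less often in input peaks than shared peaks at gene ends, of which 50.7%, 50.2% and 81.7% touched inputs 1, 2 and 3. At gene ends 90.2% touched at least 1 input.

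Against the same pooled distal classes, the members' shares were also the higher ones in each input within 4 bands of width. Among peaks over 500 and up to 800 bp wide, input 1 touched 24.1% of 187 members (18.1 to 30.8), 11.5% of distal peaks in 1 Chd7 library and 8.92% of those in neither, and input 3 touched 44.9% (37.7 to 52.3), 28.4% and 29.8%. Above 800 bp the shares in input 3 were 54.0% (46.6 to 61.2), 35.4% and 43.6% (37.6 to 49.7), so the intervals of members and of peaks in neither overlapped there. Taken at the midpoint alone, which gives every peak the same room, inputs 1, 2 and 3 covered 15.3%, 11.2% and 35.9% of members, against 6.58%, 6.00% and 20.6% of peaks in 1 Chd7 library and 3.09%, 2.84% and 14.1% of those in neither.

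**Figure D5:**
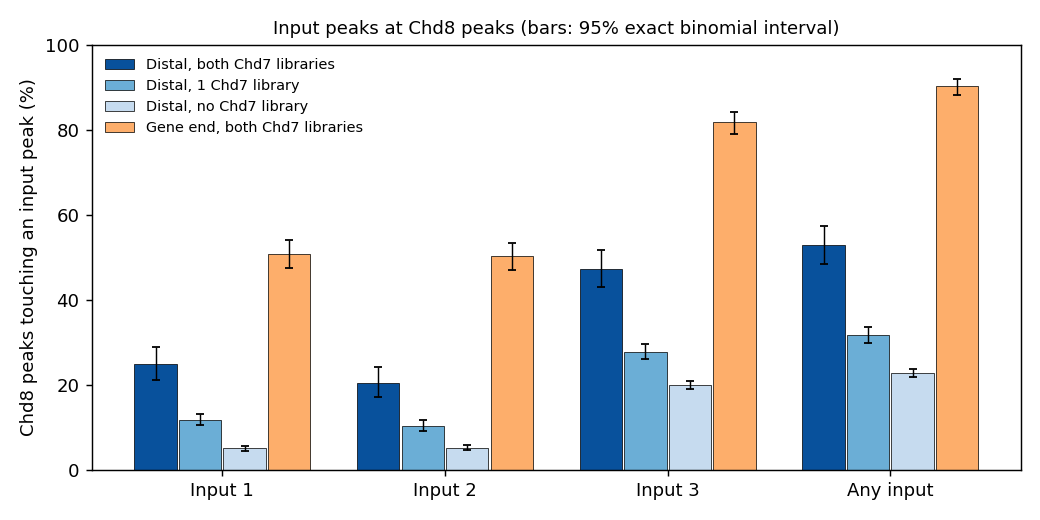
Share of Chd8 peaks (%) that touch a peak of each input or of any input, for distal peaks in both, 1 or neither Chd7 library and for gene-end peaks in both, with 95% exact binomial intervals over peaks. In every input the 518 members stand above the other distal classes as drawn, where the class of 1 Chd7 library pools both replicates, and below the shared gene-end peaks.

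Members in more inputs lay closer to genes and starts. The 244 members in no input peak had a listed start within 1 kb in 10.2% of cases and a median distance to a coding boundary of 32303.5 bp, and the 60 members in all 3 inputs had 53.3% and 5812 bp. With 1 and 2 inputs the shares were 27.3% and 34.9%. Of the 122 members near a start 97 (79.5%) touched an input, against 177 of the other 396 (44.7%). Whether the signal seen in the inputs has a part in the shared calls was not tested.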

How the data were processed

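ChIP-seq peak lists of 8 libraries were analysed, 1 list per library. Per the submitters' processing notes, reads were processed with Bowtie2, SAMtools, Picard and MACS on mm10, and the sources used here give neither their versions nor their settings. Each deposited list holds the authors' caller score per peak, a fold (a ratio over the local background), and the −log10 p and −log10 q. The score and −log10 p were not used further. Extraction notes name the O4 antibody for isolating the complexes, whereas the labels name an antibody for each ChIP, and the labels were used. No source used here says whether replicates came from separate animals.

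Overlaps, distances from peak edges and shares were computed in Python 3.11.15 with pandas 2.3.3 and scipy 1.17.1, and checked on simulated intervals. Genes, boundaries, strands and start windows came from RefSeq tables of GRCm38.p6, with 21887 protein-coding genes, 12727 lncRNA genes and 32851 start windows. The genome sequence was not used here, so the planned CpG content of whole members was not computed. Gene lists numbered 14, with 461 entries, of which 460 matched by symbol. Members and lists were chosen with earlier results of these data known. Named were the 10 members with the highest Chd8 fold and the 10 with the highest mean Chd7 fold, peaks next to the 1 kb limit, genes with most members, up to 4 genes of each list by Chd8 fold and fixed lineage genes, of which a few are not reported here. A gene has a member if the member lies in its body or if its boundary is the nearest. Alternatives were higher peak thresholds, mock-touching peaks kept, input peaks removed, other overlap and distance limits, non-coding boundaries counted, sex chromosomes left out and each Chd7 library alone.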

Additional observations from a re-analysis of the deposited data

How the results depend on the processing

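The number of members depends most on the peak threshold and on the Chd7 libraries: 518 became 150 with a −log10 q of at least 2, 70 with a fold of at least 4, 273 with matching-input peaks removed and 244 with any-input peaks removed, and from 1139 to 2299 when 1 Chd7 library was left out. The share of distal Chd8 peaks (5.33%) became 2.01%, 0.991%, 3.67%, 3.42% and 11.7% to 23.7% in the same order, and 5.81% with mock-touching peaks kept. The fold cut of 4 was the same in the 3 ChIP libraries, and the lowest member fold in Chd7 replicate 1 was 4.15. In replicate 2 the members' 75th percentile was 3.78, so this cut fell mainly on that library. The share inside genes (62.9%) was 57.1% at a fold of at least 4 and 57.6% beyond 5 kb, and 59.3% to 66.2% without a Chd7 library. The share at non-coding ends (16.2%) was 12.9% at a fold of at least 4, 11.0% and 8.61% without peaks of the matching or any input, and 10.9% to 17.9% without a Chd7 library. Removing peaks of input 2, chosen after seeing the data, gave 12.1%. The share in the matching input (47.3%) was 58.6% at a fold of at least 4, 51.8% with mock-touching peaks kept, and 22.7% to 55.8% without a Chd7 library. After seeing the data, input 2 taken as the match gave 20.5%, and midpoints in place of whole peaks 35.9%. The share in any input (52.9%) was 65.7% at a fold of at least 4, 48.0% beyond 5 kb, 40.3% by midpoint and 25.9% to 62.7% without a Chd7 library. The cause of these changes was not tested. In all 36 of 67 alternative values stayed inside the interval of the value reported, or within 1.5 times it for the count. For gene lists, where all alternatives were chosen after seeing the data, 42 of 70 did. No paired analysis was possible because no test across samples was made and Chd8 has 1 library. The CpG ratio of whole members and its alternative window were not run. Depth is unknown, so whether a peak absent from a Chd7 list is absent or undetected cannot be told apart.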

Other observations

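Few loci held several members. Of 497 pairs of neighbouring members on a chromosome, 10 were within 10 kb and 30 within 50 kb. Of 509 genes that held a member or were nearest to one, 35 had at least 2 and 4 had 3. Chst11, a chondroitin sulfotransferase gene of 211.5 kb, held 3 members inside its body over 35.7 kb, with Chd8 folds from 4.83 to 6.64, and 2 of them touched no input. Rhcg, an ammonium transporter gene, was nearest to 3 over 38.2 kb. The 3 nearest to Alkbh8 are those on the first assembled stretch of chromosome 9. Fos, an immediate early gene, was nearest to 2 members with folds of 4.31 and 6.10, 17.7 kb from end to end. Ptn, a growth factor gene of OPCs and glia, had 2 members (5.61 and 5.71) that touched no input, and the actin motor gene Myo10 held 2 (4.68 and 4.69), also without input. Loci with 2 members were chosen here after their values were seen.

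Members were spread over all chromosomes. Chromosome 19 had 20 members among 263 distal Chd8 peaks (7.60%, 4.71 to 11.5) and chromosome 3 had 14 of 499 (2.81%, 1.54 to 4.66). The X chromosome had 3 of 138 (2.17%, 0.451 to 6.22), of which 2 lay next to each other at Mid1 with peaks in all 3 inputs.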
